A study of Pomacea canaliculata with 36 samples.

Results

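The comparison set the stump of the amputated eye stalk at 6 days post amputation (dpa) against the stump at 3dpa, in *Pomacea canaliculata*, the apple snail. It was between 8 of the 36 libraries of the series, 4 labelled 6dpa and 4 labelled 3dpa, and these were chosen by their labels alone. Polyadenylated RNA from eye stalks was sequenced, and the series also holds 4 libraries each of intact stalks and of 1, 9, 12, 15, 21 and 28dpa. The labels give no strain, age or agent for any group, and do not state whether a library held 1 animal or a pool, or whether replicates were different animals. All groups after Intact share the amputation. The p-values measure the variation among libraries within all 9 groups, since 1 model was fitted to all 36. Part of that variation may be technical. The design text lists day 7 where the sample labels give 6dpa, and the sample labels were followed.

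The eye of an apple snail is of the camera type, with a lens and a retina at the tip of a stalk, and it regrows after amputation. In appendage regeneration of this kind the wound first closes, undifferentiated cells then gather at the stump, and the lost tissues differentiate from them later. The step from 3dpa to 6dpa falls between the first response to injury and the later time points at which the eye is rebuilt. Genes are known here by locus identifier only, without product names. The identity of the tissue was therefore not checked against marker genes, no gene is given a function, and genes are grouped below by what amputation had done to them at 1dpa, by their abundance and by their place among their neighbours. Levels are given in CPM, read counts brought to a common total per library, with the totals adjusted by edgeR's TMM factors. A CPM compares libraries for 1 gene, not genes of different length with each other.

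Between 3dpa and 6dpa 1949 of 4726 genes that had been lower at 1dpa than in Intact by 2-fold or more rose, and 1401 of 3176 that had been higher fell. Rises and falls were close in number, and in most alternative fits the rises were the more numerous. The rises were larger by their median and had the lower median level, while most falls were under 1.5-fold. In all 5430 of the 17341 genes tested differed, 31.3% of them (edgeR quasi-likelihood test, Benjamini-Hochberg adjusted p below 0.05). Of these 2642 were higher at 6dpa, 15.2% of the genes tested, and 2788 were lower, 16.1%. The other 11911 genes, 68.7%, did not pass the test. In RNA from a whole stump, fewer cells of a type and less RNA per cell cannot be told apart, which holds for every level given here.

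The sizes of the rises and falls differed. The median rise was 1.92-fold, and 1236 genes, 7.13% of those tested, were at least 2-fold higher at 6dpa. The median fall was 1.36-fold, as 3dpa over 6dpa, and 453 genes, 2.61%, were at least 2-fold lower. The test called 120 rises and 15 falls of at least 8-fold. Under 1.5-fold lay 24.2% of the rises and 66.1% of the falls. The genes that rose had a median level of 8.36 CPM at 6dpa and 3.97 CPM at 3dpa, and those that fell had a median of 28.5 CPM at 6dpa and 40.4 CPM at 3dpa. The change was spread over many genes, since the 3 genes of the largest gain made up 4.90% of the summed gain in CPM and the 3 of the largest loss 6.15% of the summed loss. In 2345 genes, 13.5%, all 4 libraries of 6dpa lay above all 4 of 3dpa, and in 2583, 14.9%, all lay below. Among the genes that passed the test the groups did not overlap in 2034 that rose and 2138 that fell. Of the genes tested, 22 had counts at 6dpa and none at 3dpa, and 14 had counts at 3dpa and none at 6dpa.

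The split into rises and falls depended on the scaling, the filter, the libraries and the method, and the larger changes did not to that extent. Falls outnumbered rises in the fit reported here. Rises outnumbered falls in every alternative except the replicate term (49% of calls were rises) and limma-voom (46.4%). Scaled by library size alone, 66.4% of the called genes were rises in place of 48.7%, and 1677 genes fell in place of 2788. The TMM factors lay between 1.04 and 1.09 in the 6dpa libraries and between 0.967 and 1.03 in the 3dpa libraries, and their part in the count of falls was not tested further. Without 6dpa replicate 4 there were 1740 falls, and over the 8 fits that each left out 1 library the falls lay between 1740 and 2289 and the rises between 2349 and 2854. Rises of 2-fold or more lay between 1121 and 1410 over all 16 alternatives and falls of that size between 339 and 517. No gene called in the fit reported here and in an alternative changed direction.

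The libraries of the 2 days stood apart as whole profiles. Each library held 25.1 to 31.99 M counts at 6dpa and 25.4 to 29.2 M at 3dpa, and 1 CPM stood for at least 26.5 counts at 6dpa and 25.5 at 3dpa. Counts were found in 18350 to 18672 genes of a 6dpa library and in 18200 to 18399 genes of a 3dpa library. The Euclidean distance on log2 CPM of all tested genes lay between 103 and 122 over the 16 pairs of a 6dpa with a 3dpa library. It lay between 65.6 and 82.7 over the 6 pairs within 6dpa, and between 68.1 and 92.8 over the 6 pairs within 3dpa.

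Among called genes without overlap that reached 5 CPM in the higher group, the 2 largest rises began from very low levels at 3dpa. LOC112570692 stood at 16.5, 11.2, 13.6 and 19.5 CPM in the 6dpa libraries, replicates 1 to 4, against 0.0381, 0.471, 1.23 and 0.556 CPM in the 3dpa libraries. The groups were far apart, with the lowest of 6dpa well above the highest of 3dpa. Its log2 fold change was 4.67 ± 0.43 (SE; adjusted p = 9.19e-10, edgeR). This gene had been at 4.30 ± 3.05 CPM in Intact (SD, n = 4) and 0.345 ± 0.294 CPM at 1dpa, and its mean was 14.8 ± 2.20 CPM by 9dpa and 19.0 ± 5.68 CPM by 15dpa. By 28dpa, at 5.83 ± 1.70 CPM, it lay within 1 SD of the intact mean again.

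LOC112568515 had 38.4, 21.2, 27.0 and 29.2 CPM at 6dpa, against 0.609, 1.88, 1.83 and 0.626 CPM at 3dpa. No 3dpa library came near the 6dpa range, and the log2 fold change was 4.54 ± 0.44 (adjusted p = 2.04e-09, edgeR). The intact level of this gene was 7.04 ± 3.72 CPM, and 1dpa libraries held 0.591 ± 0.648 CPM. Its 6dpa mean was the highest of the 9 groups, with 15.3 ± 6.32 CPM by 9dpa and 4.88 ± 2.35 CPM by 28dpa.

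By the same limits, the 2 largest falls were of genes that had been higher at 1dpa than in Intact. LOC112568020 had 7.90, 5.18, 6.45 and 3.73 CPM at 6dpa, against 118, 28.9, 47.2 and 48.5 CPM at 3dpa. The 4 libraries of 6dpa were all below those of 3dpa, among which replicate 1 was the highest. The log2 fold change was -3.38 ± 0.58 (adjusted p = 4.42e-05, edgeR). Its level was 1.78 ± 1.42 CPM in Intact and 84.7 ± 49.0 CPM at 1dpa, and it lay between means of 4.17 and 8.92 CPM from 9dpa to 28dpa.

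LOC112576040 had 0.0964, 0.265, 0.270 and 0.611 CPM at 6dpa, against 2.47, 0.863, 1.96 and 16.2 CPM at 3dpa. The groups did not overlap, but 3dpa replicate 4 stood far above the other 3. The log2 fold change of -4.09 ± 1.26 (adjusted p = 0.0136, edgeR) became -2.46 without that library, with an adjusted p of 0.203 (edgeR), and the call was also lost with limma-voom (adjusted p = 0.0696).

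The genes with the largest change in CPM were abundant throughout and moved by smaller folds. LOC112565629 had 1692, 2166, 2144 and 1750 CPM at 6dpa, against 1486, 1268, 1354 and 1493 CPM at 3dpa. Its log2 fold change was 0.47 ± 0.14 (adjusted p = 0.0112, edgeR). Intact libraries held 653 ± 96.0 CPM and those of 1dpa 726 ± 180 CPM. From 9dpa to 28dpa the means stayed between 1810 and 2222 CPM, above every intact library.

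LOC112572591 had 624, 1374, 1038 and 1144 CPM at 6dpa, against 549, 558, 438 and 529 CPM at 3dpa. All 6dpa libraries were above all 3dpa libraries, with 6dpa replicate 1 the closest to them, and the log2 fold change was 1.01 ± 0.17 (adjusted p = 3.15e-05, edgeR). This gene had fallen to 241 ± 35.1 CPM at 1dpa, against 1054 ± 115 CPM in Intact, and the 6dpa mean of 1045 ± 314 CPM lay within 1 SD of the intact mean. It lay between means of 799 and 1131 CPM at all later times.

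LOC112554475 had 1137, 1215, 1172 and 1423 CPM at 6dpa, against 794, 889, 750 and 842 CPM at 3dpa. The log2 fold change was 0.59 ± 0.20 (adjusted p = 0.0221, edgeR), and the call was lost without 3dpa replicate 3 (adjusted p = 0.0546) or without 6dpa replicate 4 (adjusted p = 0.0653). The 6dpa mean was the highest of the 9 groups, against 392 ± 32.1 CPM in Intact and 634 ± 102 CPM at 28dpa.

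Of the 3 largest losses in CPM, LOC112565575 moved by the largest fold. It had 1022, 1043, 1120 and 948 CPM at 6dpa, against 3231, 2360, 2543 and 2464 CPM at 3dpa, and the log2 fold change was -1.36 ± 0.14 (adjusted p = 5.99e-09, edgeR). The groups were far apart beside their spread. The intact level was 368 ± 23.8 CPM, and 1dpa libraries held 6407 ± 1072 CPM. The mean had come down to 804 ± 66.2 CPM by 9dpa and 522 ± 89.2 CPM by 12dpa.

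LOC112555656 had 4403, 4708, 4834 and 3992 CPM at 6dpa, against 7052, 6106, 5702 and 5702 CPM at 3dpa. The log2 fold change was -0.45 ± 0.11 (adjusted p = 0.00141, edgeR). Its intact level was 1536 ± 85.8 CPM, it was at 4280 ± 625 CPM at 1dpa, and it was still at 3472 ± 463 CPM at 28dpa. It was therefore highest at 3dpa by its mean and above the intact level at every time measured.

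LOC112573645 had 3706, 3416, 3206 and 3108 CPM at 6dpa, against 5447, 5460, 5265 and 4050 CPM at 3dpa. The groups did not overlap, but 3dpa replicate 4 lay between the other 3dpa libraries and those of 6dpa. The log2 fold change was -0.59 ± 0.22 (adjusted p = 0.0405, edgeR), and the call was lost in 9 of the 16 alternatives, with adjusted p-values up to 0.110. Its level had been 3118 ± 626 CPM by 1dpa, against an intact level of 230 ± 79.8 CPM.

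**Figure D1:**
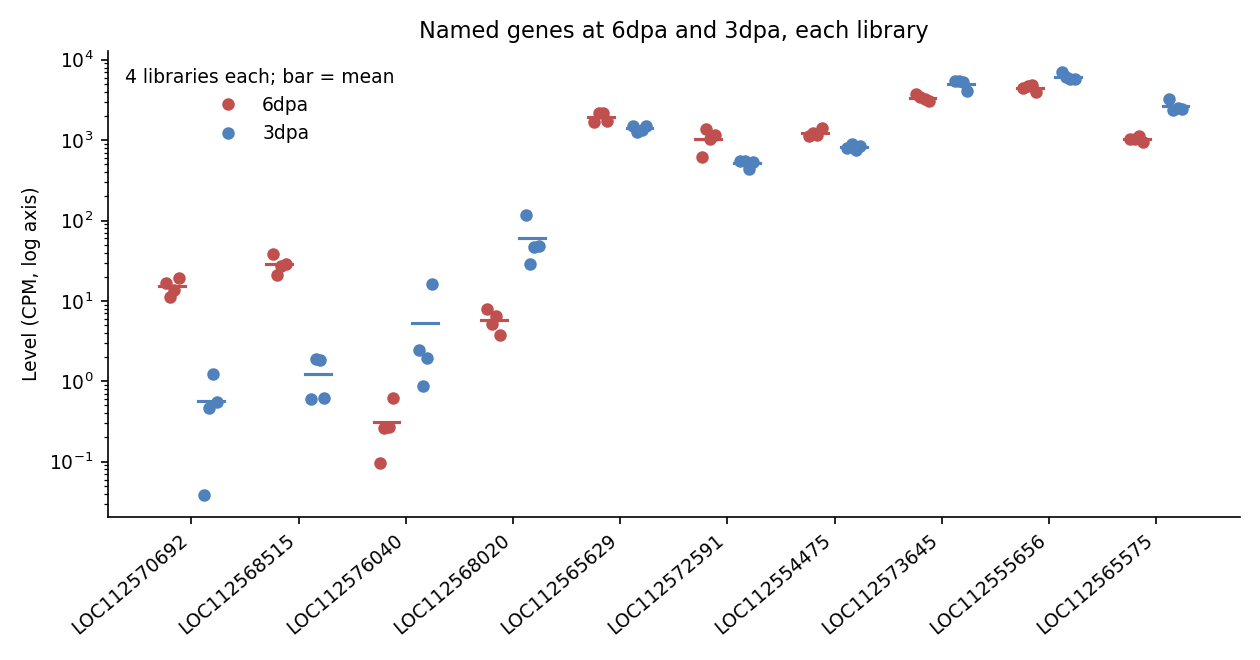
The level of 10 genes in each library, in CPM on a log axis, at 6dpa (red, left of each pair) and at 3dpa (blue, right), 4 libraries each, with a bar at the mean. The 2 genes on the left lie above 10 CPM at 6dpa and below 2 CPM at 3dpa, and the 6 genes on the right, all above 400 CPM, moved by less on this axis.

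Most of the rises were in genes that had been lower at 1dpa than in Intact. To describe this, genes were divided by the comparison of 1dpa with Intact, which uses none of the 8 libraries of the step. At 1dpa 4726 genes, 27.3% of those tested, were lower than in Intact by 2-fold or more (edgeR, adjusted p below 0.05), and 3176, 18.3%, were higher by 2-fold or more. Of the 4726 genes lower at 1dpa, 1949 were higher at 6dpa than at 3dpa, 41.2% of them, against 15.2% of all tested genes. Only 58 of them, 1.23%, were lower at 6dpa, against 16.1% of all tested genes. Their median log2 fold change was 0.53, with quartiles of 0.14 and 1.04, against -0.02 over all tested genes. Rises of 2-fold or more numbered 1021 among them, out of 1236 in all.

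The genes that had been raised at 1dpa moved the other way. Of these 3176 genes 1401 were lower at 6dpa than at 3dpa, 44.1% of them, against 16.1% of all tested genes, and 39, or 1.23%, were higher, against 15.2%. Their median log2 fold change was -0.38, with quartiles of -0.70 and -0.16. Falls of 2-fold or more numbered 360 among them, out of 453 in all. The remaining 9439 genes, which were not called at 2-fold or more at 1dpa, held 654 that were higher at 6dpa, 6.93% of them, and 1329 that were lower, 14.1%, with a median log2 fold change of -0.06. With the scaling by library size alone the class of genes raised at 1dpa held 2600 genes, of which 925, or 35.6%, were lower at 6dpa. Over the fits without 1 library the share lay between 31.4% and 38.8% (1044 to 1292 genes). That of the rises among the genes lower at 1dpa lay between 36.9% and 44.6% (1717 to 2074 genes). Without 6dpa replicate 4, 37 of the genes lower at 1dpa were lower at 6dpa in place of 58, and without 3dpa replicate 4 there were 38. Across all 17341 genes the log2 fold change of the step and that of 1dpa over Intact had a Pearson's r of -0.53 and a Spearman's rho of -0.61, given as a description over genes, which are not independent replicates.

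**Figure D2:**
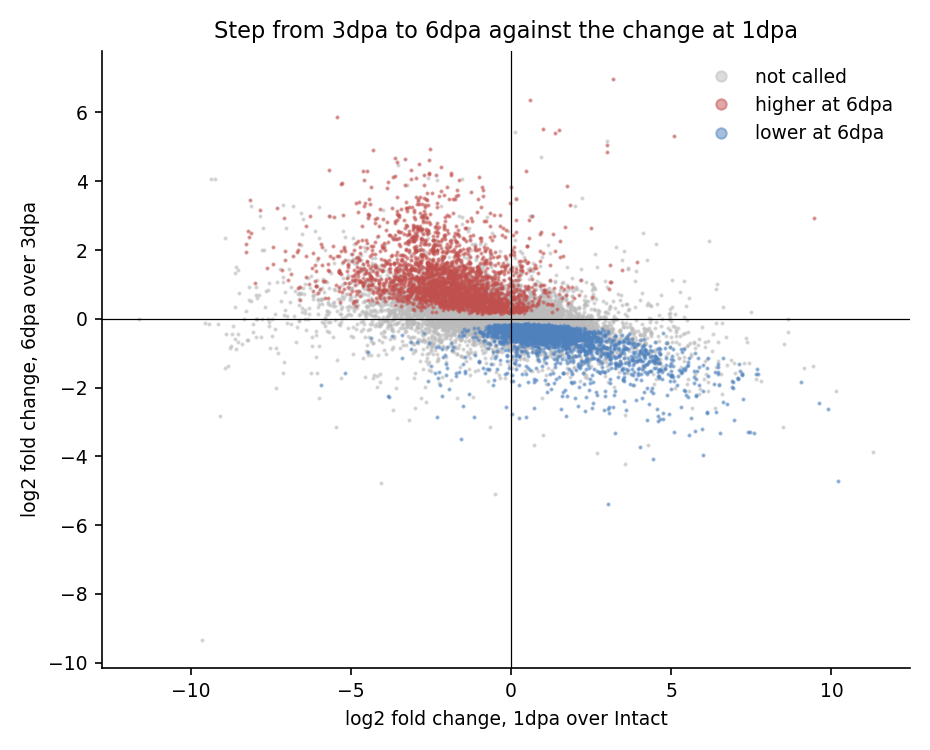
Each point is 1 of the 17341 genes tested, with its log2 fold change of 1dpa over Intact on the x axis and of 6dpa over 3dpa on the y axis. Genes higher at 6dpa (red) gather left of 0, among genes lower at 1dpa, and genes lower at 6dpa (blue) gather right of 0, among genes higher at 1dpa.

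On the side of the losses the median step grew with the size of the loss up to 32-fold. Among genes that were lower at 1dpa by 2 to 4-fold (1980 genes), 35.9% were higher at 6dpa, with a median log2 fold change of 0.35. Over all tested genes 15.2% were higher. The share was 46.7% for losses of 4 to 8-fold (1456 genes, median 0.64) and 48.0% for losses of 8 to 32-fold (978 genes, median 0.82). For losses of 32-fold or more (312 genes) it was 28.8%, with a median of 0.76. The share called in this last class was below that of the 3 milder classes, while its median step was close to that of the class before it; the difference between classes was not tested.

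On the side of the gains the median step was more negative the larger the gain had been. Genes that were 2 to 4-fold higher at 1dpa (1848) were lower at 6dpa in 41.5% of cases, with a median log2 fold change of -0.28, and in 2.38% of cases by 2-fold or more. Over all tested genes these shares were 16.1% and 2.61%, so falls of 2-fold or more were no more frequent in this class. For gains of 4 to 8-fold (648 genes) 44.3% were lower and 9.57% by 2-fold or more, with a median of -0.48. For gains of 8 to 32-fold (496 genes) the values were 52.2% and 34.3%, with a median of -0.89. For gains of 32-fold or more (184 genes) they were 48.4% and 45.7%, with a median of -1.42. In this last class 84 of the 89 called falls were of 2-fold or more.

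**Figure D3:**
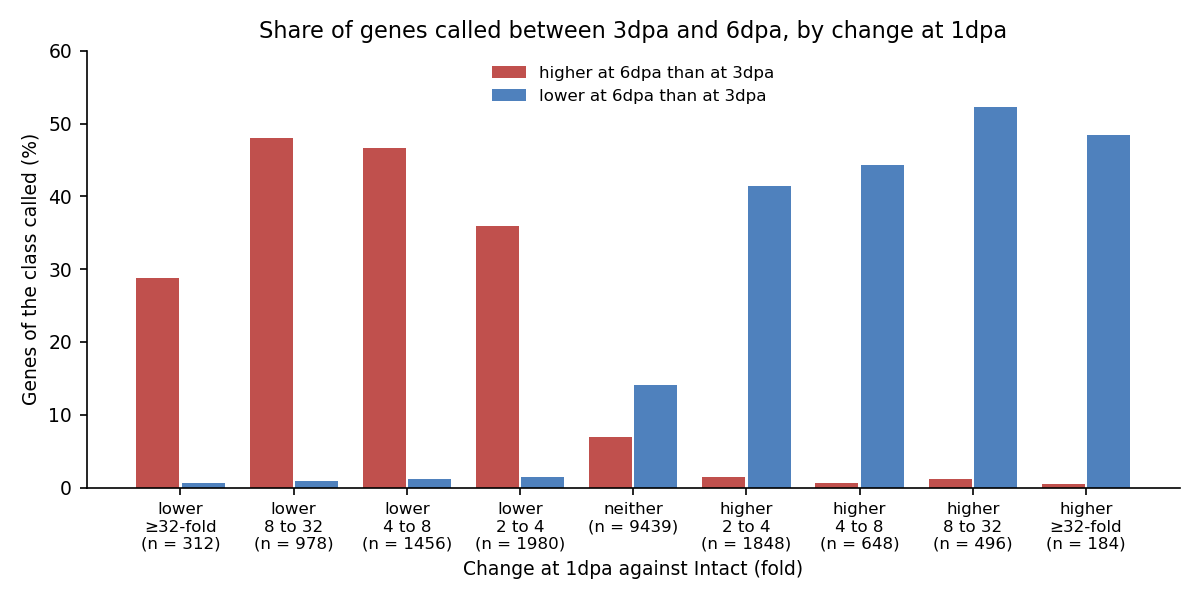
The share of genes called higher (red) or lower (blue) at 6dpa than at 3dpa, in percent of each class, with classes along the x axis from the largest loss at 1dpa against Intact to the largest gain and the number of genes below each. Red bars reach 28.8 to 48.0% in the 4 classes of loss, and blue bars reach 41.5 to 52.2% in the 4 classes of gain. The class not called at 2-fold or more at 1dpa, marked neither, has 6.93% and 14.1%, and it includes smaller changes that passed the test. Over all tested genes the shares are 15.2% and 16.1%.

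Within each library both classes had moved toward the level of the intact stalk. The measure is the median over a class of the log2 ratio of the CPM to the mean CPM of Intact, with 0.5 CPM added to both. Intact and 1dpa were used to choose the classes, so that the values of those 2 groups follow from the choice. For the genes lower at 1dpa the median stood at -0.75, -0.61, -0.58 and -0.58 in the 6dpa libraries, against -1.19, -1.12, -1.09 and -0.96 in the 3dpa libraries. All 4 libraries of 6dpa were nearer to Intact than any of 3dpa. The group means were -0.63 ± 0.08 at 6dpa and -1.09 ± 0.10 at 3dpa (SD, n = 4 each). With the 0.5 CPM added to both sides, they correspond to 64.6% and 47.0% of Intact. That addition draws the ratio of a low-level gene toward no change. The earlier mean of 1dpa was -1.68. Later means were -0.40 (9dpa), -0.64 (12dpa), -0.38 (15dpa), -0.26 (21dpa) and -0.21 (28dpa), with the 12dpa mean close to that of 6dpa.

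For the genes raised at 1dpa the median was 0.53, 0.52, 0.52 and 0.48 in the 6dpa libraries, against 0.90, 0.82, 0.80 and 0.77 in the 3dpa libraries. Again the 2 groups did not overlap. The means were 0.51 ± 0.02 at 6dpa and 0.82 ± 0.05 at 3dpa, or 1.42-fold and 1.77-fold of Intact with the 0.5 CPM added to both sides. Later means of this class were 0.46 (9dpa), 0.58 (12dpa), 0.43 (15dpa) and 0.25 (28dpa).

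The genes of the step were also followed from 1dpa to 9dpa, in libraries that the step did not use. That span also covers the days from 1dpa to 3dpa and from 6dpa to 9dpa. From 1dpa to 9dpa, 1204 of the 1236 genes that had risen by 2-fold or more at 6dpa had a positive log2 fold change (97.4%), with a median of 2.43. Of the 453 that had fallen by 2-fold or more, 413 had a negative one (91.2%), with a median of -2.77. Over all tested genes 53.2% were positive and the median was 0.08. These are fitted values without a call for each gene. Of the rises 1021, and of the falls 360, were of genes changed the other way by 2-fold or more at 1dpa. The values therefore do not test the step apart from the change at 1dpa.

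**Figure D4:**
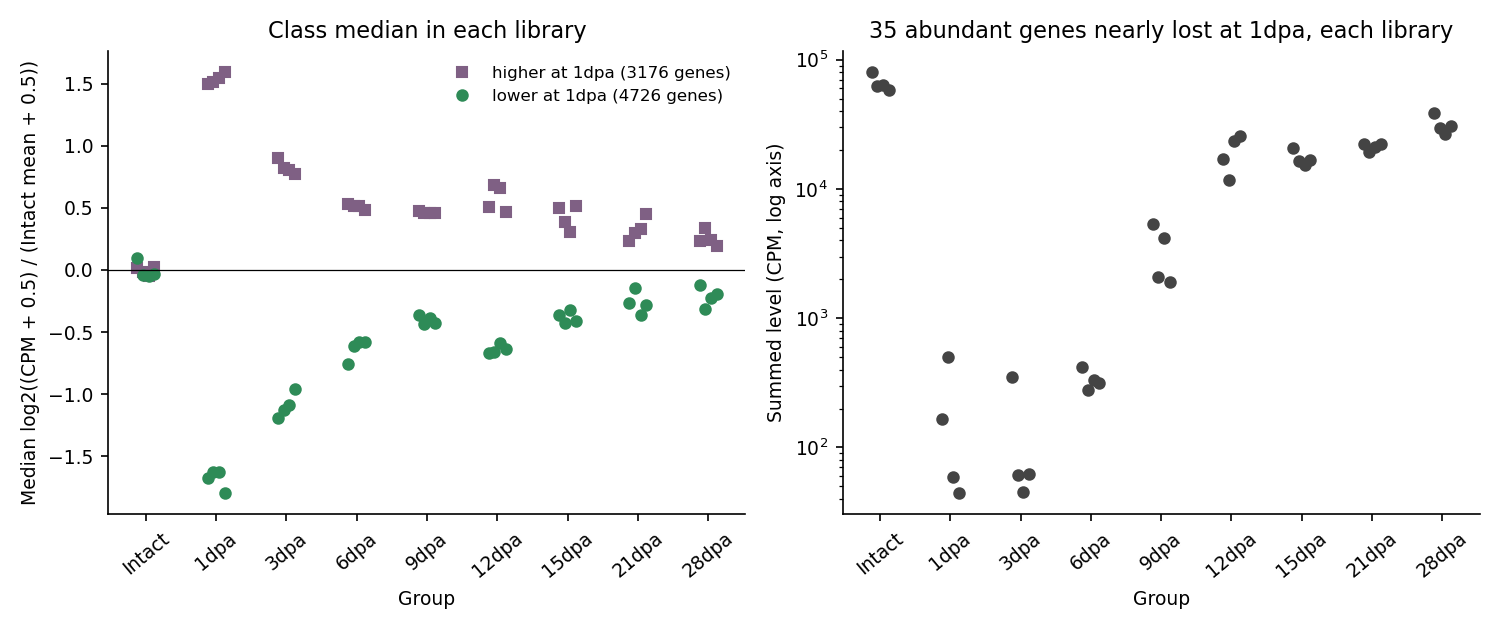
Left, the median of each class of genes in each library as a log2 ratio to the Intact mean, for genes higher (purple squares) and lower (green circles) at 1dpa, in time order. Right, the summed CPM of 35 abundant genes nearly lost at 1dpa, on a log axis. At 6dpa both classes lie nearer to 0 than at 3dpa, while the summed level at 6dpa (279 to 418 CPM) is above 3 of the 4 libraries of 3dpa and far below Intact.

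Most genes that were abundant in the intact stalk and almost gone after amputation were still far below their intact level at 6dpa. They are the 35 genes of at least 100 CPM in Intact that were at least 100-fold lower at 1dpa, a list chosen on Intact and 1dpa alone after values had been seen. Their summed level was 418, 279, 335 and 313 CPM at 6dpa, against 351, 61.2, 45.3 and 62.7 CPM at 3dpa. All 4 libraries of 6dpa exceeded 3dpa replicates 2 to 4, and 3dpa replicate 1 lay within the 6dpa range. In Intact the sum was 66251 ± 9788 CPM (SD, n = 4), so that the mean of 6dpa was 0.508% and that of 3dpa 0.196% of it. Gene by gene the 6dpa mean was between 0.0149% and 12.9% of the intact mean, with a median of 0.453%, and above 2% in 4 genes. The sum then reached 5.09% of Intact at 9dpa, 29.4% at 12dpa and 47.5% at 28dpa. Most of it was LOC112562530, with 2815 of 3371 CPM at 9dpa, 15170 of 19473 CPM at 12dpa and 22380 of 31481 CPM at 28dpa. Of the 35 genes 10 were higher at 6dpa and 0 were lower (edgeR, adjusted p below 0.05), or 28.6% and 0% against 15.2% and 16.1% of all tested genes, and the median log2 fold change was 0.51, with 21 positive and 14 negative.

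These counts rested on 3dpa replicate 1, which was the highest 3dpa library in 32 of the 35 genes and above all 6dpa libraries in 21. Without it 17 of the genes were higher and 0 lower, 34 had a positive log2 fold change, and the median was 1.68. In 23 of the 35 genes the other 3 libraries of 3dpa lay below all 4 of 6dpa. Without 3dpa replicate 2, 3 or 4 the number called lower was 1, which was LOC112576458 each time. Among the 1dpa libraries, replicate 2 stood out in the same way, with a summed level of 499 CPM beside 165, 58.9 and 44.3 CPM. No reason for this was tested.

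At 6dpa, as at 9dpa, 12dpa and 28dpa, a single gene of the 35 held most of the sum. LOC112562530 had 307, 189, 243 and 219 CPM at 6dpa, against 154, 25.4, 10.7 and 20.5 CPM at 3dpa. Even 3dpa replicate 1 lay below the 6dpa range in this gene, and the log2 fold change was 2.19 ± 0.62 (adjusted p = 0.00801, edgeR). It held 154 of the summed 351 CPM in 3dpa replicate 1 and 307 of 418 CPM in 6dpa replicate 1. The place of 3dpa replicate 1 within the 6dpa range of the sum therefore rested on this gene. The intact mean was 28995 CPM, followed by 94.0 CPM at 1dpa, and the gene was back at 2815 CPM by 9dpa and 15170 CPM by 12dpa. The 6 genes next in abundance in Intact did not pass the test at this step. LOC112555734, at 4605 CPM in Intact, had 4.79, 2.68, 4.80 and 1.62 CPM at 6dpa, against 22.2, 1.53, 0.764 and 1.01 CPM at 3dpa (adjusted p = 0.445, edgeR). LOC112571947, at 3673 CPM in Intact, had 2.28, 1.85, 3.84 and 1.74 CPM at 6dpa, against 19.98, 1.77, 1.99 and 1.81 CPM at 3dpa (adjusted p = 0.154, edgeR). The 2 genes of highest share of their intact level at 6dpa were less abundant ones. LOC112566642, at 144.8 CPM in Intact, had 22.7, 17.2, 16.1 and 18.8 CPM at 6dpa, against 6.51, 6.004, 4.02 and 2.92 CPM at 3dpa, and its log2 fold change was 1.95 ± 0.24 (adjusted p = 1.41e-07, edgeR). LOC112567080, at 122 CPM in Intact, had 9.90, 4.12, 4.08 and 7.12 CPM at 6dpa, against 0.913, 0.746, 0.299 and 0.800 CPM at 3dpa (log2 fold change 3.21 ± 0.32, adjusted p = 3.02e-09, edgeR). Their 6dpa means were 12.9% and 5.16% of the intact means, and no 3dpa library reached the 6dpa range in either. All these genes were named after their values had been seen.

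By abundance in the intact stalk, changes of 2-fold or more were mostly among the rarest genes. The share called higher was 10% of the 100 genes of most CPM in Intact, 14.0% of ranks 101 to 1000, 12.7% of ranks 1001 to 5000, 14.7% of ranks 5001 to 10000 and 17.2% of ranks 10001 to 17341, against 15.2% of all tested genes. The share called lower was 15.0%, 20.8%, 20.7%, 17.9% and 11.7% in the same classes, against 16.1% of all tested genes. Rises of 2-fold or more made up 11.9% of the rarest class, or 875 genes, and at most 4.76% of any other class, against 7.13% of all tested genes. Falls of that size made up 4.82% of the rarest class, or 354 genes, and at most 1.18% of any other, against 2.61%. The rarest class holds 7341 of the 17341 genes tested. The filter used all 9 groups, so a gene almost silent in Intact was tested only where another group expressed it. The larger shares of this class follow in part from that filter. Folds of rare genes also carry the larger counting error.

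The step was also set against the next 3 days, from 6dpa to 9dpa. The difference of both steps, (6dpa over 3dpa) minus (9dpa over 6dpa) on the log2 scale, was tested in 1 contrast because both steps contain the 6dpa libraries. It was positive in 1418 genes, 8.18% of those tested, and negative in 906, 5.22% (edgeR, adjusted p below 0.05). Scaled by library size alone it was positive in 2081 and negative in 526. Without 3dpa replicate 1 it was positive in 2028 and negative in 934, without 6dpa replicate 4 positive in 1059 and negative in 348, without 6dpa replicate 2 negative in 540 and without 6dpa replicate 3 in 570. A gene counts as positive when its step to 6dpa lay above its step to 9dpa, whether it rose, fell or stayed in either.

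Among the genes of largest positive difference, LOC112563688 was high at 6dpa and low on both sides of it. It had 11.1, 5.25, 8.25 and 10.5 CPM at 6dpa, against 0.875, 1.45, 0.698 and 0.591 CPM at 3dpa, and the log2 fold change was 3.30 ± 0.24 (adjusted p = 1.54e-12, edgeR). At 9dpa it was down to 1.85 ± 0.532 CPM, a log2 fold change of -2.27 ± 0.22 against 6dpa (adjusted p = 2.55e-09, edgeR). The difference of the steps was 5.57 ± 0.37 (adjusted p = 2.91e-13, edgeR). In the intact stalk it was at 0.0382 ± 0.0324 CPM, and it was at 0.555 ± 0.150 CPM at 28dpa. The 6dpa mean, 8.77 ± 2.65 CPM, was the highest of the 9 groups.

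LOC112568515, described above as a gene of large rise, was lower at 9dpa than at 6dpa (log2 fold change -0.92 ± 0.33, adjusted p = 0.0486, edgeR), and its steps differed by 5.46 ± 0.62 (adjusted p = 1.72e-07, edgeR). LOC112576194 had 8.32, 4.42, 5.43 and 7.33 CPM at 6dpa, against 0.304, 0.432, 0.465 and 0.174 CPM at 3dpa, and its log2 fold change was 4.201 ± 0.55 (adjusted p = 5.52e-07, edgeR). No library of 3dpa came near 6dpa. The next step did not pass the test (-1.01 ± 0.38, adjusted p = 0.0579, edgeR), with 3.16 ± 1.55 CPM by 9dpa, and the steps differed by 5.21 ± 0.77 (adjusted p = 1.02e-05, edgeR).

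In the negative direction LOC112557805 showed a passing low at 6dpa. It had 2.35, 5.06, 3.99 and 3.24 CPM at 6dpa, against 15.5, 14.7, 29.6 and 32.4 CPM at 3dpa, and it was back at 24.0 ± 9.88 CPM at 9dpa. The 6dpa libraries lay below all of 3dpa. The log2 fold change was -2.67 ± 0.35 for the step to 6dpa (adjusted p = 8.17e-07, edgeR) and 2.72 ± 0.35 for the next (adjusted p = 2.75e-06, edgeR), a difference of -5.39 ± 0.66 (adjusted p = 7.06e-07, edgeR). The 6dpa mean of 3.66 ± 1.15 CPM was the lowest of the 9 groups, below the intact level of 6.38 ± 1.59 CPM, and the gene reached 61.7 ± 12.0 CPM by 12dpa and 46.2 ± 7.48 CPM by 28dpa.

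The other two genes of large negative difference belong to the 35 abundant genes nearly lost at 1dpa, and their values change with 3dpa replicate 1. LOC112576458 had 1.77, 0.680, 2.16 and 0.550 CPM at 6dpa, against 36.8, 0.667, 0.332 and 0.278 CPM at 3dpa, and 63.1 ± 40.6 CPM at 9dpa. The step to 6dpa did not pass the test (log2 fold change -2.84 ± 1.198, adjusted p = 0.0708, edgeR), and the difference of -8.42 ± 2.21 (adjusted p = 0.00981, edgeR) became -3.90 (adjusted p = 0.308) without 3dpa replicate 1. LOC112559381 had 5.53, 1.10, 4.62 and 1.38 CPM at 6dpa, against 20.2, 1.41, 0.764 and 0.313 CPM at 3dpa, and 90.96 ± 53.7 CPM at 9dpa. Its step to 6dpa did not pass the test either (-0.80 ± 0.88, adjusted p = 0.516, edgeR). Its difference of -5.63 ± 1.56 (adjusted p = 0.0147, edgeR) became -2.81 (adjusted p = 0.219) without that library, and the call was also lost without 6dpa replicate 2 (adjusted p = 0.0569) or 6dpa replicate 4 (adjusted p = 0.0687). In a fit to the 12 libraries of 3dpa, 6dpa and 9dpa alone both calls were lost too (adjusted p = 0.056 for LOC112576458 and 0.0686 for LOC112559381). For both genes the rise to 9dpa passed the test (log2 fold changes 5.58 and 4.83, adjusted p = 0.00116 and 0.000174, edgeR).

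**Figure D5:**
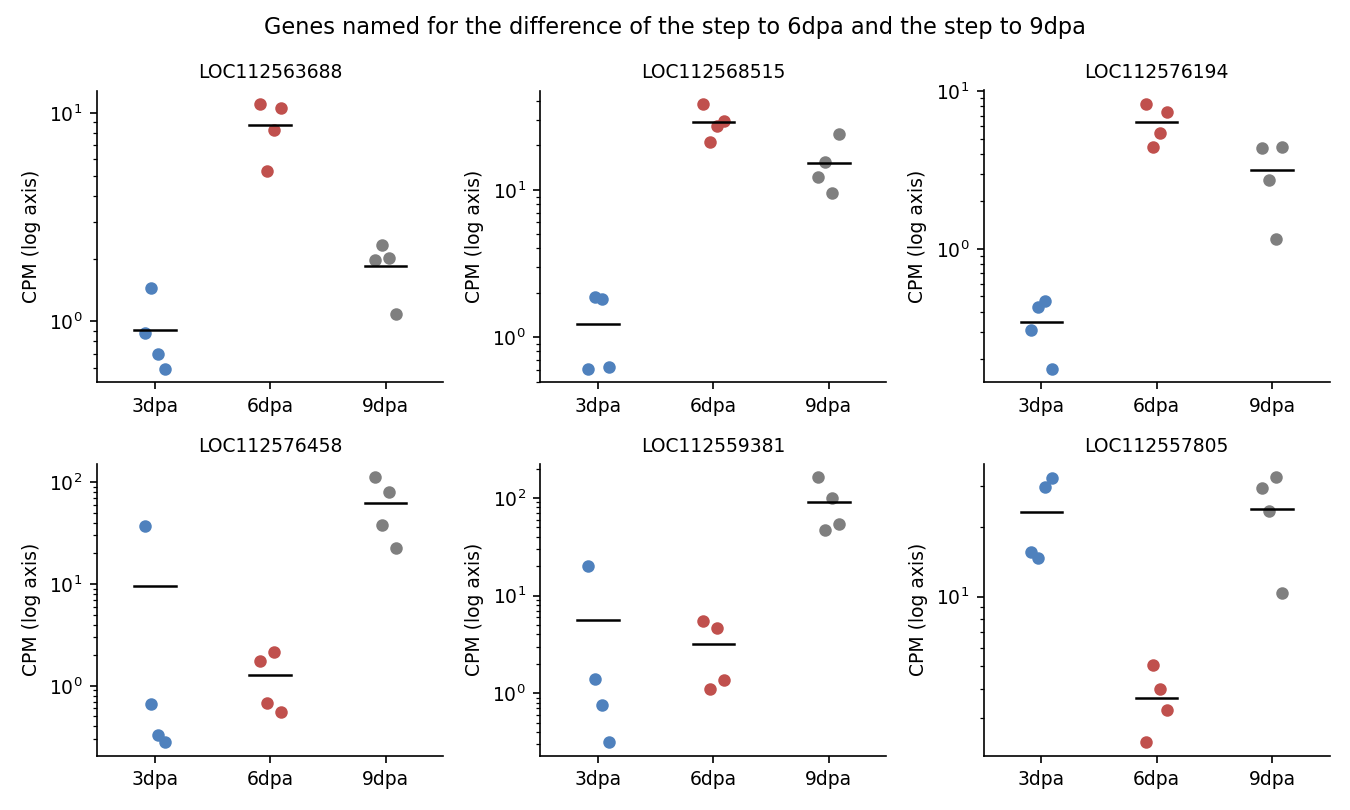
The level in each library, in CPM on log axes that differ between panels, at 3dpa, 6dpa and 9dpa in time order, with a bar at the mean of the 4 libraries. By their means the upper genes are highest and LOC112557805 is lowest at 6dpa among these 3 times, and in LOC112576458 and LOC112559381 a single library lies far above the other 3 of 3dpa, at 36.8 and 20.2 CPM.

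The neighbours of genes that changed were described by gene order. In the order of the RefSeq gene table, 24.2% of the tested neighbours of a gene that rose had risen too and 13.1% had fallen, against 15.2% and 16.1% of all tested genes. Of the neighbours of a gene that fell 22.5% had fallen and 12.4% had risen. Only tested genes were placed in this order, so untested genes may lie between neighbours or between members of a run. Among tested genes, unbroken runs of rising genes reached 7 genes in 2 places, and the longest run of falling genes held 6. Neighbours can be near-identical copies or overlap, and whether reads of such genes were shared between them in counting is not known here.

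In the first run of 7 the neighbours were all higher at 6dpa, while at 1dpa 2 of them had been higher and 5 lower than in Intact. The most abundant at 6dpa was LOC112554294, with 90.6, 61.9, 62.0 and 72.3 CPM at 6dpa, against 19.9, 23.6, 17.3 and 17.5 CPM at 3dpa, and its log2 fold change was 1.87 ± 0.14 (adjusted p = 1.13e-11, edgeR). Its level was 12.1 ± 1.58 CPM in Intact, and its 6dpa mean was the highest of the 9 groups. LOC112553929 had 38.3, 30.0, 25.9 and 35.6 CPM at 6dpa, against 21.2, 17.0, 18.2 and 16.8 CPM at 3dpa. It had been higher at 1dpa (36.2 ± 3.93 CPM) than in Intact (17.8 ± 1.45 CPM). LOC112554259 had 13.7, 20.4, 20.2 and 18.3 CPM at 6dpa, against 10.8, 8.59, 9.31 and 14.2 CPM at 3dpa, and the groups overlapped. This gene had been at 733 ± 91.4 CPM in Intact and at 11.1 ± 1.64 CPM at 1dpa, and it was at 314 ± 59.1 CPM at 28dpa. The members higher at 1dpa were LOC112553928 and LOC112553929 (edgeR, adjusted p below 0.05 for all 7).

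In the second run of 7, 5 members were almost silent at 3dpa. They were almost silent in Intact too, with means of at most 0.0491 CPM, and none of them passed the test of 1dpa against Intact. Their 6dpa means all lay above their Intact means. This follows in part from the choice, since the run was picked as higher at 6dpa. Genes almost silent in Intact and at 3dpa also passed the filter only through other groups. LOC112567961 had 5.62, 0.945, 1.92 and 6.29 CPM at 6dpa, against 0.266, 0, 0.0665 and 0.0348 CPM at 3dpa, and LOC112568510 had 3.15, 0.378, 0.990 and 4.37 CPM at 6dpa, against 0.190, 0, 0 and 0.0695 CPM at 3dpa. The 6dpa libraries spread widely in both, with replicates 1 and 4 above replicates 2 and 3, and lay above 3dpa throughout. LOC112567960 had 1.19, 2.38, 8.04 and 4.13 CPM at 6dpa, with its 3 counts at 3dpa all in replicate 3, so that no fold is given. LOC112567963 and LOC112567959 likewise had 3 and 2 counts in the whole of 3dpa, against 55 and 119 counts at 6dpa. The other 2 members were expressed at both times, and had been lower at 1dpa than in Intact (edgeR, adjusted p below 0.05). LOC112567964 had 6.56, 16.02, 11.3 and 9.72 CPM at 6dpa, against 2.78, 5.49, 5.62 and 3.93 CPM at 3dpa (log2 fold change 1.28 ± 0.30, adjusted p = 0.00158, edgeR). LOC112567955 had 9.77, 10.5, 19.6 and 13.0 CPM at 6dpa, against 4.57, 10.1, 5.72 and 6.47 CPM at 3dpa, and leaving out 6dpa replicate 3 ended the call (adjusted p = 0.0522, edgeR).

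The run of 6 falling genes was made of genes that had all been higher at 1dpa than in Intact (edgeR, adjusted p below 0.05). LOC112569245 had 1.09, 1.66, 1.65 and 1.38 CPM at 6dpa, against 3.65, 4.199, 4.55 and 3.13 CPM at 3dpa, and the log2 fold change was -1.43 ± 0.31 (adjusted p = 0.00071, edgeR). It had been at 16.2 ± 7.27 CPM at 1dpa and 0.718 ± 0.226 CPM in Intact. LOC112568169 had 1.99, 2.04, 1.95 and 2.26 CPM at 6dpa, against 5.79, 3.34, 5.22 and 4.21 CPM at 3dpa, with 2.40 ± 0.283 CPM in Intact. LOC112568191 had 1.32, 0.567, 0.570 and 0.550 CPM at 6dpa, against 2.28, 2.55, 3.42 and 3.06 CPM at 3dpa. The most abundant, LOC112568168, had 18.6, 19.5, 22.0 and 18.2 CPM at 6dpa, against 50.4, 28.1, 37.8 and 34.97 CPM at 3dpa (log2 fold change -0.95 ± 0.33, adjusted p = 0.0279, edgeR). Its call was lost in 5 of the fits without 1 library, with an adjusted p of 0.106 without 3dpa replicate 1, the highest library of 3dpa. The calls of LOC112568170 and LOC112568189 were lost in 7 and 3 of the 16 alternatives. In all 6 genes the 6dpa libraries lay below those of 3dpa. All runs were picked after their values had been seen.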

How the data were processed

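Polyadenylated RNA of 36 libraries was measured, and groups and replicate numbers were taken from the titles. The authors deposited 1 table of raw counts per gene. The submitters' processing notes name STAR, a read aligner. Its version, the annotation, the genome build, strandedness and the handling of multi-mapping reads are not stated there. All 21131 rows matched a protein-coding symbol of the RefSeq gene table for ASM307304v1, which was used for names and gene order only and holds no product names, so the gene lists by product name and the protein families were not run. In R 4.3.3 with edgeR 4.0.16, filterByExpr on the 9 groups left 17341 genes (615 had no count in any library), and a TMM-scaled, robust quasi-likelihood model with a mean per group was fitted to all 36 libraries. Contrasts were tested two-sided with Benjamini-Hochberg adjustment over all tested genes, at a threshold of 0.05, and SEs come from the F statistic. The procedure was tested on simulated data.

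Genes were named by 3 rules: the 2 largest rises and 2 largest falls by log2 fold change among called genes without overlap that reached 5 CPM in the higher group, the 3 largest gains and 3 largest losses in mean CPM among called genes without overlap, and the 3 largest differences between steps in each direction among those called with at least 5 CPM in the highest of 3dpa, 6dpa and 9dpa. With that minimum taken over all 9 groups, 4 of the 6 names would change, to LOC112567961, LOC112568510, LOC112576987 and LOC112576363. The nearly lost genes and the neighbour runs were picked with their values in view. The comparison, the rules and the lists were all chosen with earlier results of these data known. A chi-square test on each pair of libraries of 1 day gave at least 12.5 per degree of freedom, so none agreed within sampling noise. Counting error at 25.5 or more counts per CPM limits genes of low level. Alternatives were DESeq2's size factors (RLE), library size alone, no filter, a filter of 1 CPM in 4 libraries, a fit to the compared groups alone, a replicate term, each library left out, DESeq2 1.42.0, and limma-voom with sample weights (limma 3.58.1). The counts by class at 1dpa without each library, and those of the nearly lost genes, were added after seeing the data.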

Additional observations from a re-analysis of the deposited data

Results flagged for a closer look

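In 9 of 72 groups of 4 libraries tested, the highest or lowest library stood apart from the other 3, and chance alone is taken to flag about 5% of such groups. At 3dpa replicate 1 was high for the summed level of the 35 abundant genes nearly lost at 1dpa (351 CPM), and within that list for LOC112576458 (36.8 CPM) and LOC112559381 (20.2 CPM), so these 3 are not independent of each other. At 3dpa replicate 4 was high for LOC112576040 (16.2 CPM) and low for LOC112573645 (4050 CPM). At 3dpa replicate 3 was low for LOC112553928 (2.89 CPM) and high for LOC112567960 (0.0997 CPM) and LOC112568189 (0.997 CPM). At 6dpa replicate 1 was high for LOC112568191 (1.32 CPM). No 6dpa library stood apart for any other named gene.

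For 19 of the 35 named genes the step from 3dpa to 6dpa differed from the step from 6dpa to 9dpa by the test of the difference itself (edgeR, adjusted p below 0.05). Over all tested genes it was above the next step in 8.18% and below in 5.22%. The 6 genes named for this difference were chosen by that test. The others were chosen for large steps or with their values in view, so this count follows in part from the choice. Of the 19, LOC112567960 and LOC112567959 had at most 3 counts at 3dpa and are given no value. Among the 6 genes named for this difference it was, on the log2 scale, 5.57 for LOC112563688, 5.46 for LOC112568515, 5.21 for LOC112576194, -8.42 for LOC112576458, -5.63 for LOC112559381 and -5.39 for LOC112557805. Among the genes of large fold it was 4.71 for LOC112570692 and -3.49 for LOC112568020. Among those of large change in CPM it was 1.14 for LOC112572591, 0.986 for LOC112554475 and -0.996 for LOC112565575. In the first run of neighbours it was 1.45 for LOC112553928, 1.07 for LOC112553929, 2.51 for LOC112554294 and 2.08 for LOC112554603, and in the second 5.74 for LOC112567961 and 5.53 for LOC112568510. The calls of LOC112576458 and LOC112559381 were lost without 3dpa replicate 1, as given above.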

How the results depend on the processing

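Counts of falls, of the differences between steps and of the nearly lost genes moved with the processing. Under library size alone 1677 genes were lower at 6dpa, 925 of the genes raised at 1dpa (2600 under that scaling) were lower, and 526 genes had a step to 6dpa below the next. With the adjusted p alone, without the 2-fold limit at 1dpa, 2266 genes raised at 1dpa were lower at 6dpa and 107 higher. Of the genes lower at 1dpa by that rule 186 were lower at 6dpa. Leaving out each library in turn gave 1740 to 2289 falls. It gave 37 to 72 falls among genes lower at 1dpa, and 32 to 57 rises and 1044 to 1292 falls among genes raised at 1dpa. For the difference of the steps it gave 1407 to 2962 genes in all, 1059 to 2028 above and 348 to 934 below. Of the 35 nearly lost genes it gave 9 to 17 higher and 0 to 1 lower. The step of LOC112576458 reversed to 1.68 without 3dpa replicate 1 and to 0.61 with limma-voom, and that of LOC112559381 to 2.01 and 1.02 (log2; none of these 4 passed the test); over the fits without 1 library these steps lay between -3.26 and 1.68 and between -1.203 and 2.01, and the cause was not tested. Calls numbered 4089 to 7096 over the 16 alternatives, the most with limma-voom and the fewest without 6dpa replicate 4. Fitted to the 8 libraries of 3dpa and 6dpa alone, 16000 genes were tested and 4627 were called, with 77.7% of the 5430 among them. With a term for the replicate number, a replicate block, there were 5442 calls, 97.3% of the 5430 among them. Same-numbered libraries had correlations of 0.117, -0.0124, -0.00223 and 0.0133 in their deviations from the group means. Those of different number lay between -0.218 and 0.208. With 4 libraries a group these values cannot show whether the numbers pair the libraries. Alternatives on protein families were not run, since no protein sequences were used here. Depth limits genes under about 1 CPM.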
